A study of Mus musculus with 165 samples.

Results

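The lysosomal hydrolases and the proton pump that acidifies the lysosome were followed as a set of 40 genes chosen by symbol, out of 36255 genes in the table: 9 proteases, 7 glycosidases, 5 genes of lipid handling, 5 proteins of the lysosomal membrane, 11 genes of the vacuolar proton pump (4 subunits of the membrane sector V0, 6 of the catalytic sector V1 and 1 accessory protein) and the 3 transcription factors *Tfeb*, *Tfe3* and *Mitf*. All 40 were in the table and 39 passed the filter on low values (1 library or more with a normalized count of 5 or higher). The exception was *Ctss*, cathepsin S, with at most 6 reads in any library.

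PUER cells are a progenitor line from mice that lack PU.1 (*Spi1*-/-), labelled as from bone marrow although the study's text also names fetal liver, and carry a fusion of PU.1 with the hormone-binding part of the estrogen receptor, which 4-hydroxytamoxifen (OHT) activates. Every group below shares this background. RNA-Seq was carried out on undifferentiated cells kept in IL3 without OHT (3 libraries), on cells held for 48 h in GCSF before OHT (GCSF 0h, 3 libraries), and at 27 times after OHT, the first at 1h and the last at 168h, in IL3 conditions (81 libraries) and in GCSF conditions (78 libraries). The IL3-OHT cells received 200 nM OHT with 5 ng/ml IL3. The GCSF-OHT cells had the 48 h in GCSF first, and then 100 nM OHT with 10 ng/ml GCSF. The cytokine, its concentration, the pre-treatment and the OHT dose therefore cannot be told apart. The undifferentiated cells had 5 ng/ml IL3 and the GCSF 0h cells 10 ng/ml GCSF. No library of cells kept for 48 h in IL3 alone was paired with the pre-treatment. By the study's methods the IL3-OHT cells were also seeded 48 h before OHT, in IL3. The undifferentiated libraries serve there as the start of both courses. Time in the plate and OHT therefore cannot be told apart in comparisons of IL3-OHT cells with them, nor where such changes are compared between conditions. Each time point had its own plate, so plate and time cannot be told apart in any comparison of times. Cells of the time points after 24h were detached with trypsin. In comparisons of those times with the start of a course, this handling and the time under OHT cannot be told apart. The libraries of a group are wells of 1 cell line, so p-values measure the spread between wells.

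Lysosomes break down protein, glycans and lipid that reach them by endocytosis, phagocytosis and autophagy. Most of their hydrolases are made as precursors that need the low pH set up by the vacuolar ATPase, whose V1 sector hydrolyses ATP and whose V0 sector carries protons through the membrane. TFEB, TFE3 and MITF bind the palindrome CACGTG in the promoters of many of these genes, often within the longer palindrome known as the CLEAR element. Macrophages are rich in lysosomal cathepsins, while neutrophils store serine proteases in their granules.

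Libraries held 14600246 to 33147945 reads on genes (median 21960878). A floor of 3 reads, below which a gene was not told from 0, equals 1.96 to 5.51 normalized counts depending on the library (counting error only). Replicates differed by more than counting error, with a chi-square per gene of 2.29 to 73.2 over 162 pairs. The summed markers of progenitors (5 genes) lay at 11252 to 12518 in undifferentiated cells, 5844 to 6462 at GCSF 0h, 2805 to 3067 at IL3-OHT 168h and 2822 to 2953 at GCSF-OHT 168h, with *Cd34* at 0 in every library of the GCSF 0h and IL3-OHT 168h groups. Those of neutrophils (10 genes) lay at 298396 to 304717, 406272 to 456469, 257766 to 290449 and 735320 to 782493, and those of monocytes and macrophages (9 genes) at 23768 to 26785, 22135 to 25624, 26075 to 29107 and 20154 to 21070, in the same order of groups. A sum weights each gene by its level, so it can follow a few high genes and hide opposite changes in others. The study describes some neutrophil markers as transient in GCSF conditions and others as highest at the end. The sums of different lists therefore cannot be compared in level, and they do not measure shares of cell types. Values of the individual neutrophil and macrophage markers are not given here. The summed markers of mast cells and basophils (5 genes) did not exceed 262.8, of erythroid cells (4 genes) 51.1 and of lymphoid cells (4 genes) 18.3 in these groups. *Fcer1a* and *Mcpt4*, *Hbb-bs* and *Hba-a1*, and *Cd3e* and *Ncr1* were at 0 in all libraries of at least 3 of the 4 groups. These are bulk libraries, in which fewer cells of a type and less RNA per cell cannot be told apart, and the part of cell make-up in the results below was not tested.

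Promoter windows (250 bases before to 50 bases after the start, from RefSeq on GRCm38.p6) were found for 34 of the 40 genes. The letters CACGTG, a palindrome that reads the same on both strands, were in the window of 13 of these (38.2%), against 10.9% of 11654 tested genes with a window and 7.15% of all 32851 windows.
The longer palindrome TCACGTGA, which contains the former, was in 6 of the 34 (17.6%), against 1.90% of tested genes and 0.974% of windows. GAGGAAGT, a core of PU.1 sites searched on both strands, was in 3 (8.82%, in *Ctss*, *Gla* and *Gusb*), against 3.73% of tested genes. A match is a description of the letters in a window, not of binding.
Binding of TFEB, TFE3 or MITF to these letters was not tested. The 30 bases around each TCACGTGA are shown with the palindrome in capitals, written along the gene's strand:

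*Ctsa* first match, chr2:164833749-164833778, plus strand: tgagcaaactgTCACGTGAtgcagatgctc
*Ctsa* second match, chr2:164833766-164833795, plus strand: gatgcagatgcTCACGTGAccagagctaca
*Ctsd*, chr7:142387908-142387937, minus strand: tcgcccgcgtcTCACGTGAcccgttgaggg
*Gla* first match, chrX:134601215-134601244, minus strand: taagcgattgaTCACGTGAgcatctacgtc
*Gla* second match, chrX:134601182-134601211, minus strand: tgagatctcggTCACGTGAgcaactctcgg
*Mcoln1*, chr8:3500462-3500491, plus strand: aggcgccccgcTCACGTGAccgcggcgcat
*Atp6v0d1*, chr8:105566050-105566079, minus strand: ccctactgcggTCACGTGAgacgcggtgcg
*Atp6v1a*, chr16:44139373-44139402, minus strand: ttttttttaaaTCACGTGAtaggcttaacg

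The first base of the palindrome lay 99 bases before the RefSeq start in *Ctsd*, 132 in *Atp6v1a*, 46 in *Mcoln1*, 4 in *Atp6v0d1*, and 228 in the first match of *Gla*. In *Ctsa* the first match began 13 bases before the start, and the second fell after it, in the first exon.
*Lamp1*, which encodes an abundant lysosomal membrane glycoprotein, has 4 copies of the shorter palindrome within 80 bases that end at the last base before its annotated start:

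*Lamp1*, chr8:13159081-13159160, plus strand: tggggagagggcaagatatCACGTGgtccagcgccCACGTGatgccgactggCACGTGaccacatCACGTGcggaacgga

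The genes differed widely in level. Per kilobase of exon, averaged over all groups, *Ctsd* (cathepsin D, an aspartic protease) had a normalized count of 53171, followed by *Psap* (the precursor of the saposins that present sphingolipids to hydrolases) at 13001, *Lamp1* at 4121 and the tetraspanin *Cd63* at 3574. At the other end stood *Mitf* at 67.5, *Lgmn* (legumain, the asparaginyl endopeptidase that processes cathepsins) at 50.8, *Ctsh* (an aminopeptidase of the cathepsin family) at 24.6 and *Ctss* at 0.427. *Ctsd* alone held 29.4% to 55.9% (median 41.6%) of the summed normalized counts of the 40 genes in a library, so sums over the set follow that gene. In sum the 40 genes made up between 0.884% and 1.82% of each library's reads. Their share was 1.60% ± 0.0367 (SD, n = 3) in undifferentiated cells and 1.12% ± 0.0753 (SD, n = 3) at GCSF 0h, had its lowest group mean at 56h in both courses (1.22% in IL3 and 0.898% in GCSF conditions), and stood at 1.59% in IL3 and 1.47% in GCSF conditions at 168h. Pseudogenes of *Atp6v0c* and *Cd63* were in the table at no more than 14.04 and 130.9 normalized counts, against at least 4303 and 9718 for the genes themselves.

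**Figure D1:**
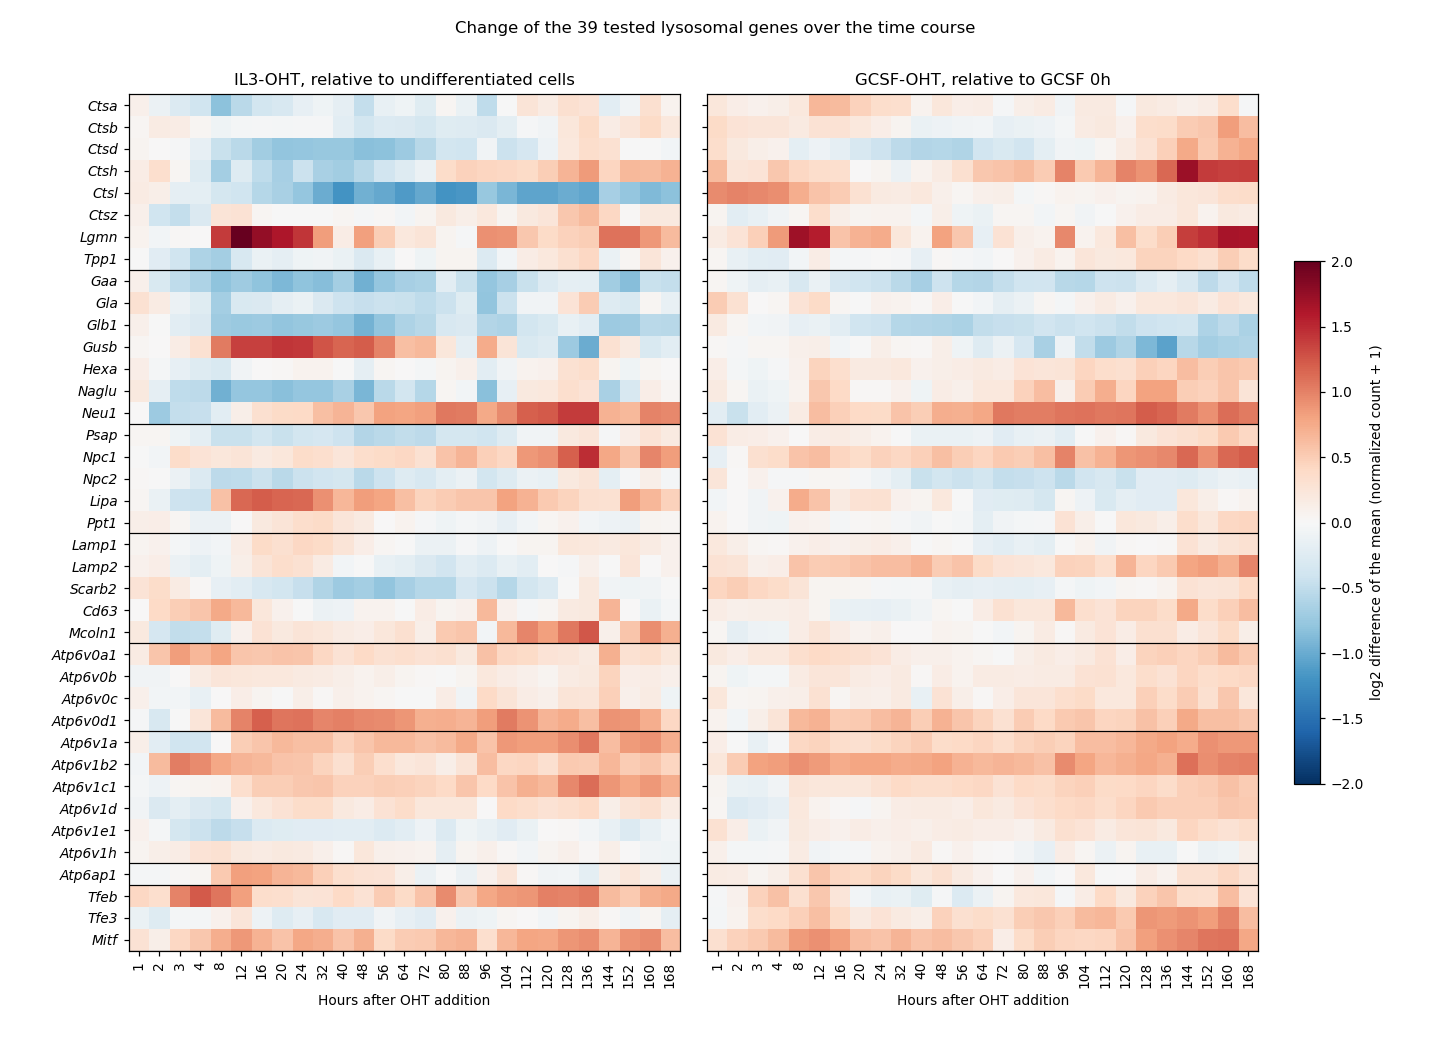
Heat map of the 39 genes tested (rows, by role) against hours after OHT (columns), in IL3 conditions relative to undifferentiated cells on the left and in GCSF conditions relative to GCSF 0h on the right. Colour is the log2 difference of the group means of normalized count + 1, red above and blue below the start, on a scale from -2 to 2. Lgmn is darkest at 12h in IL3 conditions and at 8h and from 144h in GCSF conditions, Gusb is red from 8h to 72h and blue at 136h in IL3 conditions, and Ctsl is blue from 16h on in IL3 but red from 1h to 8h in GCSF conditions.

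After 48 h in GCSF without OHT, 9 of 15 proteases and glycosidases were lower and 0 of 11 pump genes passed the fold threshold. Of the 39 genes tested, 13 were lower and 2 higher than in undifferentiated cells (adjusted p below 0.05 and absolute log2 fold change over 0.58, limma), while 20.7% of all 17414 genes tested were called lower and 13.0% higher. The median log2 fold change was -0.43 over the 39 genes and -0.09 over all genes. Of the proteases and glycosidases 1 rose, and the median of the 15 was -0.83. Of the 11 pump genes limma called 0, as did edgeR and DESeq2, with log2 fold changes from -0.54 to 0.30, and 8 of them had an unadjusted p under 0.05. After upper-quartile scaling 2 of the 11, *Atp6v0a1* and *Atp6v1e1*, were called lower.

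*Ctsl* (cathepsin L, a cysteine endopeptidase) had normalized counts of 6302, 6487 and 6489 in undifferentiated cells and 1102, 1316 and 1390 at GCSF 0h. Its log2 fold change of -2.35 ± 0.06 (SE, limma adjusted p = 1.85e-62) was the largest of the set. *Ctsh* had 127.6, 139.1 and 140.0 against 41.6, 43.8 and 46.2, a log2 fold change of -1.61 ± 0.14 (SE, limma adjusted p = 8.22e-19). These are low levels, but well above the floor of 3 reads. *Ctsd* went from 184217, 190647 and 195432 to 80170, 83850 and 102468, a log2 fold change of -1.11 ± 0.06 (SE, limma adjusted p = 1.52e-33). *Lgmn* had 86.9, 93.4 and 103.4 against 37.2, 39.7 and 48.5, a log2 fold change of -1.16 ± 0.17 (SE, limma adjusted p = 7.83e-10). In each of these 4 proteases the ranges of the groups did not overlap. Values per library are given here and below for genes picked by their large changes, so such gaps follow in part from that choice. The share of all genes whose groups do not overlap was not counted. *Ctsa*, whose product protects beta-galactosidase and sialidase in a complex, and *Ctsz*, a carboxypeptidase, fell by 0.83 and 0.72 on the log2 scale. *Ctsb* (-0.45) and *Tpp1* (-0.27) did not pass the fold threshold.

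Among glycosidases, *Naglu* (which removes N-acetylglucosamine from heparan sulfate) had 2146, 2166 and 2296 normalized counts in undifferentiated cells and 802, 818 and 838 at GCSF 0h, a log2 fold change of -1.42 ± 0.09 (SE, limma adjusted p = 3.65e-30). *Glb1*, the lysosomal beta-galactosidase, had 3004, 3057 and 3121 against 1216, 1224 and 1330, with -1.28 ± 0.06 (SE, limma adjusted p = 4.62e-42). *Gaa*, the acid alpha-glucosidase that degrades glycogen, fell by 0.89 on the log2 scale. *Gusb*, the beta-glucuronidase, went the other way, from 1066, 1067 and 1096 to 2104, 2162 and 2164, a log2 fold change of 0.99 ± 0.06 (SE, limma adjusted p = 3.56e-32). The groups did not overlap in *Naglu*, *Glb1* or *Gusb*. *Hexa* (-0.38), *Gla* (-0.55) and *Neu1* (-0.04) were not called. Outside the hydrolases, *Psap* (-0.87) and *Scarb2* (-0.88), the receptor that carries beta-glucocerebrosidase to the lysosome, fell.

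By 8h of OHT in IL3 conditions, 9 genes rose and 7 fell against undifferentiated cells, beside 11.8% of all genes called higher and 17.9% called lower, and the median was -0.09 over the 39 genes and -0.08 over all genes. All 7 that fell were proteases or glycosidases. The 9 that rose comprised 3 of 11 pump genes, 2 of 3 transcription factors, *Lgmn*, *Gusb*, *Cd63* and *Lipa*, the acid lipase of cholesteryl esters. *Lipa* missed the fold threshold with upper-quartile scaling (0.55) and without replicate 1 (0.54). The difference between roles was not tested.

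*Lgmn* had 86.9, 93.4 and 103.4 normalized counts in undifferentiated cells and 236.7, 253.2 and 257.6 at IL3-OHT 8h, a log2 fold change of 1.39 ± 0.17 (SE, limma adjusted p = 1.03e-12). *Gusb* had 2136, 2227 and 2250 at 8h, a log2 fold change of 1.03 ± 0.06 (SE, limma adjusted p = 2.37e-33). Of the pump, *Atp6v0a1*, the V0 a1 subunit, had 969, 992 and 1141 before and 1734, 1764 and 1828 at 8h, with a log2 fold change of 0.78 ± 0.06 (SE, limma adjusted p = 5.80e-22). The groups were apart in all 3 genes. *Atp6v1b2*, a catalytic-sector subunit, went from 3750, 3767 and 3932 to 6453, 6581 and 6590, a log2 fold change of 0.78 ± 0.04 (SE, limma adjusted p = 1.14e-35). *Atp6v0d1* rose by 0.64 on the log2 scale. The accessory gene *Atp6ap1* (0.52) did not pass the fold threshold. *Cd63* had 11396, 11470 and 11661 against 18921, 19251 and 19922, a log2 fold change of 0.75 ± 0.04 (SE, limma adjusted p = 2.96e-31). Among genes that fell, *Naglu* had 1043, 1107 and 1245 at 8h, a log2 fold change of -0.96 ± 0.09 (SE, limma adjusted p = 1.38e-18), and the group lay below all undifferentiated libraries. The log2 fold changes of the others were -0.82 for *Ctsa*, -0.80 for *Gaa*, -0.71 for *Glb1*, -0.68 for *Gla*, -0.68 for *Tpp1* and -0.67 for *Ctsh*.

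After GCSF pre-treatment, 8h of OHT raised 6 of the 39 genes and lowered 0, while 5.39% of all genes were called higher and 4.01% lower. The median was 0.19 over the 39 genes and -0.00 over all genes, and 34 of the 39 had a positive sign. Beside the 0 called lower by limma, edgeR and DESeq2 called 0, and 3 had a negative sign with an unadjusted p under 0.05. *Lgmn* had 37.2, 39.7 and 48.5 at GCSF 0h and 127.6, 131.7 and 150.1 at GCSF-OHT 8h, a log2 fold change of 1.69 ± 0.17 (SE, limma adjusted p = 3.93e-16). *Atp6v1b2* had 2765, 2846 and 2881 against 5221, 5333 and 5407, with 0.91 ± 0.04 (SE, limma adjusted p = 5.12e-41). *Ctsl* had 2065, 2097 and 2114 at 8h, with 0.73 ± 0.06 (SE, limma adjusted p = 4.78e-19). The groups did not overlap in these genes, and *Ctsl* at 8h still lay below every undifferentiated library. *Mitf* (0.85), *Lipa* (0.75) and *Atp6v0d1* (0.65) also rose. The comparisons at 8h in both conditions share no library. The genes *Atp6v0d1*, *Atp6v1b2*, *Lgmn*, *Lipa* and *Mitf* were called higher in both. That is 5 of the 9 in IL3 (55.6%) and 5 of the 6 in GCSF conditions (83.3%). This counts *Lipa*, whose call in IL3 conditions was lost in the cases above. The overlap over all genes was not counted, so the shared calls are not shown to be particular to the set.

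**Figure D2:**
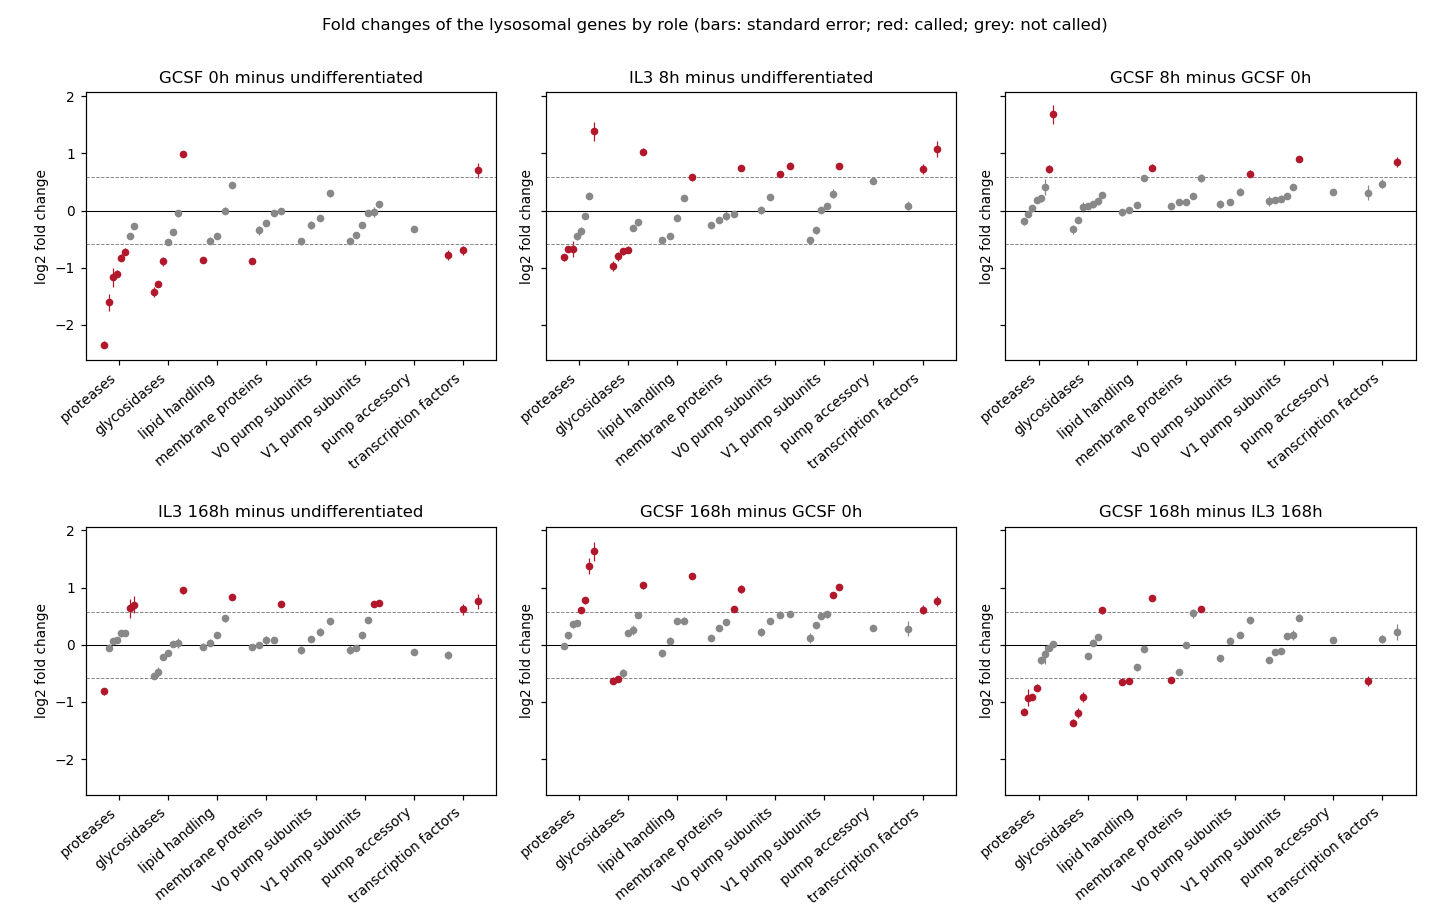
Log2 fold change with its SE (y axis) of each gene by role (x axis) in 6 comparisons (panels), red where called by limma and grey where not, with dashed lines at the fold threshold. In the GCSF 0h panel the red points of proteases and glycosidases lie below 0 except 1, which is Gusb, and the pump genes are grey.

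Over the whole courses, a change at any time against the start was called for 27 of 39 genes in IL3 conditions and 24 of 39 in GCSF conditions (limma's moderated F with the fold threshold passed at 1 time point or more), while 69.7% and 47.7% of all genes were called. Over the start and the 25 time points used in both courses (96h and 144h left out of both), 19 of the 40 genes had their highest group mean in IL3 conditions at 80h to 168h (10 time points), 11 at 1h to 8h (5 time points) and 10 at 12h to 72h (10 time points), beside 33.2%, 40.0% and 21.7% of all genes tested. In GCSF conditions the numbers were 25, 8 and 7, beside 37.2%, 32.7% and 24.9%. The ratio of the highest to the lowest group mean had a median of 2.25 for proteases, 2.28 for glycosidases and 1.78 for pump genes in IL3 conditions, and of 2.02, 1.75 and 1.60 in GCSF conditions. *Gusb* had the widest range in IL3 conditions (5.35-fold), from 2890 ± 7.85 at 20h to 540 ± 8.17 at 136h (mean ± SD, n = 3). *Lgmn* had the widest in GCSF conditions (3.68-fold), from 136.4 ± 12.0 at 8h to 37.1 ± 3.56 at 64h (n = 3). *Ctsd* was at 105979 ± 3084 at 48h and 241742 ± 8088 at 136h in IL3 conditions, and at 58139 ± 5027 at 56h and 151791 ± 6063 at 168h in GCSF conditions, as lowest and highest group means (n = 3 each). In both courses the low of *Ctsd* came before its peak, at 48h or 56h.

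The mean of 80h to 168h was set against that of 12h to 72h. The late mean includes 96h and 144h in GCSF but not in IL3 conditions. The mean of 12h to 72h holds times before and after the use of trypsin began. In IL3 conditions 4 genes were higher and 1 lower, beside 9.10% and 11.4% of all genes. In GCSF conditions 2 were higher and 1 lower, beside 3.76% and 8.26%. The log2 differences in IL3 conditions were -1.37 ± 0.02 for *Gusb*, 1.01 ± 0.05 for *Ctsh*, 0.76 ± 0.03 for *Naglu*, 0.61 ± 0.02 for *Ctsd* and 0.60 ± 0.02 for *Mcoln1* (± SE), the last a calcium channel of the lysosomal membrane. Those in GCSF conditions were 0.79 ± 0.05 for *Ctsh*, 0.65 ± 0.02 for *Ctsd* and -0.60 ± 0.02 for *Gusb*. *Ctsh* and *Ctsd* were thus higher, and *Gusb* lower, late in both courses. *Gusb* missed the fold threshold in GCSF conditions without replicate 3 (-0.57), and *Mcoln1* missed it in IL3 conditions with IL3-OHT 96h and 144h in the fit (0.47). Of the 11 pump genes limma and edgeR called 0 in either course, with medians of -0.03 in IL3 and 0.14 in GCSF conditions, while 10 in each had an unadjusted p under 0.05.

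**Figure D3:**
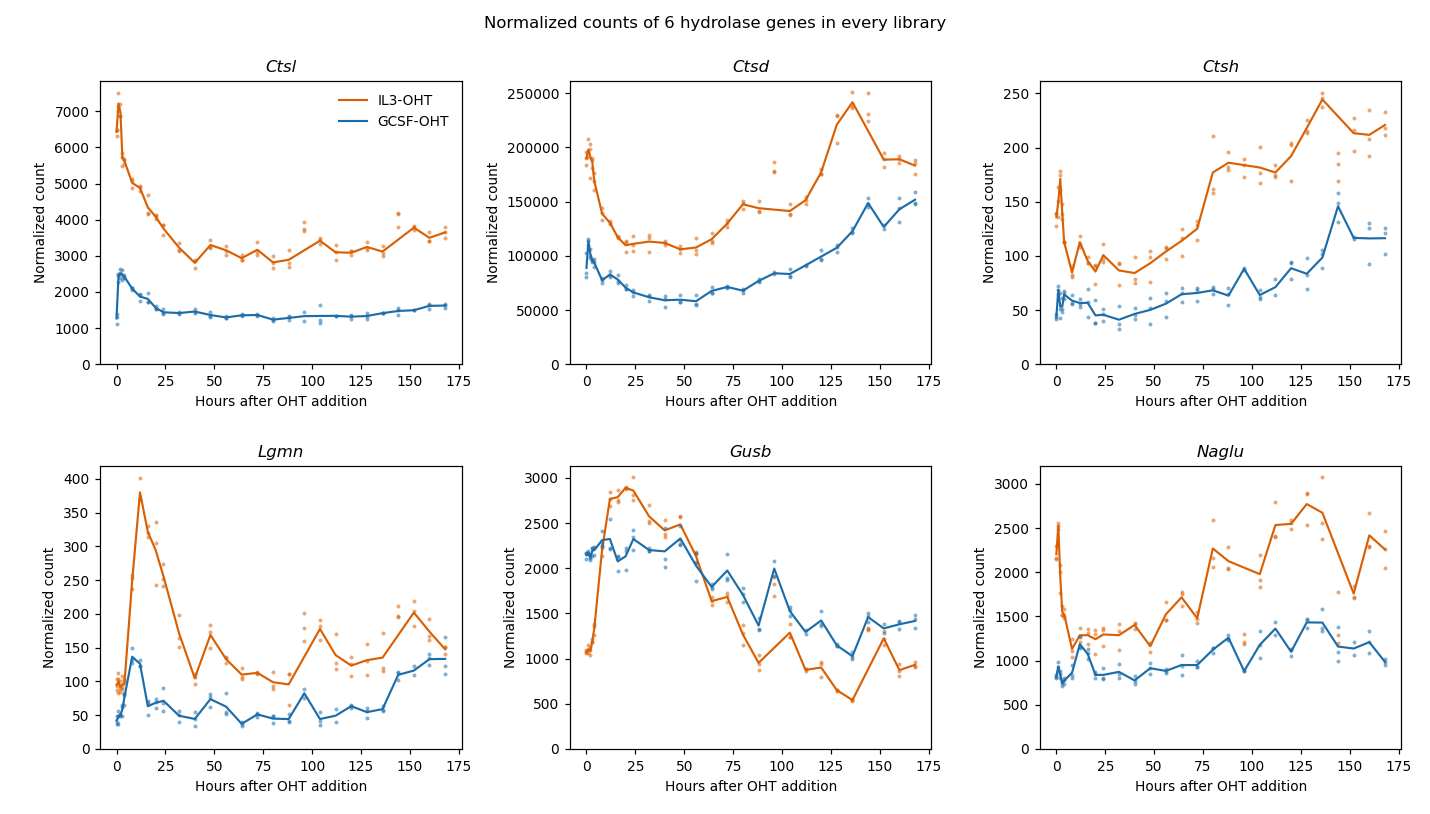
Normalized counts (y axis, linear from 0) of Ctsl, Ctsd, Ctsh, Lgmn, Gusb and Naglu against hours after OHT (x axis), in IL3 conditions in orange and GCSF conditions in blue, with a point for each library and lines through group means that pass over IL3-OHT 96h and 144h. Ctsl lies lower in GCSF conditions throughout, Ctsd dips near 48h to 56h in both, and Gusb in IL3 conditions has its highest mean at 20h and its lowest at 136h.

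At the end of the IL3 course, 9 of the 39 genes were higher than in undifferentiated cells and 1 was lower, beside 10.2% and 15.2% of all genes, with a median of 0.08 against -0.03 over all genes. At the end of the GCSF course, 12 were higher than at GCSF 0h and 2 lower, beside 12.1% and 12.6% of all genes, with a median of 0.41 against 0.00. *Atp6v1a*, *Ctsh*, *Lgmn*, *Mitf*, *Neu1* and *Npc1* were called higher in both, which is 6 of 9 in IL3 (66.7%) and 6 of 12 in GCSF conditions (50.0%). The overlap over all genes was not counted here either.

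*Neu1*, the lysosomal sialidase, had 1411, 1428 and 1482 normalized counts in undifferentiated cells and 2654, 2780 and 2958 at IL3-OHT 168h, a log2 fold change of 0.96 ± 0.06 (SE, limma adjusted p = 7.83e-28). In GCSF conditions it went from 1332, 1401 and 1459 to 2776, 2899 and 2929, a log2 fold change of 1.04 ± 0.06 (SE, limma adjusted p = 1.26e-30). The 168h libraries of both courses overlapped, and each lay above its start. *Npc1*, a membrane protein that exports cholesterol from the lysosome, had 2419, 2447 and 2450 and 4083, 4449 and 4537 in IL3 conditions, with 0.84 ± 0.05 (SE, limma adjusted p = 2.48e-33). In GCSF conditions it had 1758, 1808 and 1840 and 4095, 4102 and 4276, with 1.21 ± 0.05 (SE, limma adjusted p = 1.75e-47). *Atp6v1a*, the catalytic A subunit of the pump, had 7791, 8043 and 8181 at IL3-OHT 168h (log2 fold change 0.73 ± 0.04, SE) and 7183, 7456 and 7563 at GCSF-OHT 168h (0.87 ± 0.04, SE). All libraries at 168h were above those of the corresponding start, which had 4742, 4855 and 4888 and 3974, 4047 and 4104. *Atp6v1c1* (0.72) was called higher in the IL3 comparison and *Atp6v1b2* (1.01) in the GCSF comparison, while *Atp6v1c1* had 0.50 in GCSF and *Atp6v1b2* 0.43 in IL3 conditions.

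*Lgmn* stood at 140.9, 150.8 and 150.8 at IL3-OHT 168h and 111.2, 122.6 and 166.0 at GCSF-OHT 168h, with log2 fold changes from the start of 0.64 ± 0.17 (SE, limma adjusted p = 5.68e-04) and 1.64 ± 0.17 (SE, limma adjusted p = 6.11e-16). *Ctsh* stood at 211.3, 218.5 and 232.8 and 101.8, 121.3 and 125.9, with 0.70 ± 0.14 (SE, limma adjusted p = 1.60e-05) and 1.38 ± 0.14 (SE, limma adjusted p = 3.45e-15). The GCSF-OHT 168h libraries of *Ctsh* lay above GCSF 0h and below every undifferentiated library. *Ctsl* fell in the IL3 course, to 3480, 3661 and 3806, a log2 fold change of -0.82 ± 0.06 (SE, limma adjusted p = 1.18e-22). In the GCSF course *Lamp2*, a membrane glycoprotein needed for fusion with autophagosomes, had 5697, 5807 and 5846 at the start and 10802, 11540 and 11801 at 168h, a log2 fold change of 0.98 ± 0.08 (SE, limma adjusted p = 5.61e-22). *Ctsd* (0.78), *Cd63* (0.62) and *Ctsb* (0.61) rose there as well, and *Glb1* (-0.63) and *Gusb* (-0.60) fell. In the IL3 course *Mcoln1* rose (0.71). In the GCSF course *Glb1* (-0.57) and *Gusb* (-0.55) were not called without replicate 1, nor *Ctsb* without replicate 3 (0.55).

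Between consecutive time points few genes were called, in the set as over all genes. Over 52 steps, 31 of 2028 tests of these genes were called (1.53%), beside 2.69% of all tests of all genes, and in 34 steps 0 of the 39 genes were called. *Lgmn* accounted for 14 of the 31 calls, 7 in each course. Each step runs from the time point before. In IL3 conditions it rose to 8h (1.39), 12h (0.61), 48h (0.68), 104h (0.93) and 152h (0.59) (log2 fold changes). In GCSF conditions it rose to 8h (0.84), 48h (0.74), 96h (0.89) and 144h (0.88). It fell to 32h (-0.59) and 40h (-0.70) in IL3 conditions, and to 16h (-1.003), 64h (-0.71) and 104h (-0.90) in GCSF conditions. Part of the medium, with fresh OHT, was replaced at 40h, 88h and 136h, and the part of this in the rises was not tested. The libraries at GCSF-OHT 40h had 33.8, 44.7 and 54.5 normalized counts of *Lgmn* and those at 48h 62.0, 77.5 and 81.4. At 88h they had 40.0, 40.9 and 51.4 and at 96h, with 2 libraries, 75.5 and 89.3. At 136h they had 55.7, 57.5 and 63.6 and at 144h 102.2, 112.9 and 113.6. In each of these 3 pairs the later libraries were above the earlier ones without overlap.

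The other 17 calls over steps fell on 13 genes. In the first 3h of IL3-OHT they were *Atp6v1b2*, higher at 2h than at 1h (log2 0.69), *Neu1*, lower at 2h (-0.73), and *Tfeb*, higher at 3h than at 2h (0.66). *Lipa* rose from 4h to 8h in IL3 (1.01) and in GCSF conditions (0.67), and *Gusb* in IL3 conditions (0.73). In GCSF conditions *Ctsl* (0.94) and *Ctsh* (0.63) rose within 1h of OHT. *Ctsl* had 2288, 2482 and 2507 normalized counts at GCSF-OHT 1h, above the libraries of GCSF 0h. From 72h to 80h *Naglu* rose in IL3 conditions (0.61).

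The step from 136h to 152h in IL3 conditions held 9 of the 31 calls. *Gusb* (1.18) and *Lgmn* rose, and 7 genes fell: *Npc1* (-0.93), *Gla* (-0.81), *Neu1* (-0.76), *Mcoln1* (-0.68), *Gaa* (-0.65), *Ctsz* (-0.61) and *Naglu* (-0.60). Among all genes, 9.22% were called higher and 6.75% lower in this step. *Gusb* had 531, 541 and 548 normalized counts at 136h and 1149, 1218 and 1303 at 152h, and *Npc1* had 6585, 6764 and 7068 and 3407, 3660 and 3685. The libraries of both time points were apart in both genes. Each time point was collected from its own plate, and part of the medium, with fresh OHT, was replaced at 136h. The plate, the medium change and the time therefore cannot be told apart. IL3-OHT 96h and 144h, which the study left out as outliers, were kept out of the comparisons. In a fit that holds them, 1 of the 39 genes was higher and 2 lower at 96h than the mean of 88h and 104h, beside 9.36% and 8.17% of all genes, and 2 were higher and 2 lower at 144h than the mean of 136h and 152h, beside 8.59% and 6.76%. *Gusb* was higher at both (0.71 and 0.71), *Naglu* (-0.73 and -0.62) and *Mcoln1* (-0.65 and -0.79) were lower at both, and *Cd63* was called at 144h (0.58).

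GCSF-OHT cells had less mRNA than IL3-OHT cells of 8 of 15 proteases and glycosidases, averaged over the course. Over the mean of 25 shared time points, 10 of the 39 genes were lower in GCSF conditions and 0 higher, beside 15.1% and 9.34% of all genes. The median difference was -0.25 over the 39 genes and -0.06 over all genes. Beside the 0 called higher by limma, edgeR called 0, and 6 had a positive difference with an unadjusted p under 0.05 (*Gusb*, *Ppt1*, *Lamp2*, *Atp6v0d1*, *Atp6v1d* and *Tfeb*). Of the 10, 8 were proteases or glycosidases (of 15), 1 was a pump gene (of 11) and 1 a transcription factor (of 3). The log2 differences were -1.26 ± 0.01 for *Ctsl*, -1.20 ± 0.03 for *Lgmn*, -1.15 ± 0.01 for *Glb1*, -1.08 ± 0.03 for *Ctsh*, -0.80 ± 0.02 for *Mitf*, -0.80 ± 0.02 for *Naglu*, -0.79 ± 0.01 for *Ctsd* and -0.76 ± 0.01 for *Ctsz* (± SE), followed by -0.70 for *Gaa* and -0.69 for *Atp6v0a1*. Their limma adjusted p ran from 3.12e-110 to 1.12e-62. Of these 10, *Ctsl*, *Lgmn*, *Glb1*, *Ctsh*, *Mitf*, *Naglu*, *Ctsd*, *Ctsz* and *Gaa* were already called lower at GCSF 0h than in undifferentiated cells, before OHT. *Atp6v0a1* was not called there (-0.54). A difference carried over from the pre-treatment was not told apart from one that arose after OHT.

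Compared at each shared time point, 301 of 975 tests of these genes were called lower in GCSF conditions (30.9%), beside 12.7% of all tests of all genes, and 21 were called higher (2.15%), beside 9.97%. *Ctsl* and *Glb1* were lower in GCSF conditions at 25 of 25 time points, *Ctsh* and *Mitf* at 24, *Ctsd* and *Lgmn* at 22, *Ctsz* at 21, *Naglu* at 19, *Atp6v0a1* at 18, *Lipa* at 17 and *Gaa* at 16. *Gusb* was higher in GCSF conditions at 9 time points and *Ppt1*, a thioesterase that removes palmitate from proteins, at 7. 11 of the 39 genes were not called at any of the 25 time points: *Ctsb*, *Tpp1*, *Hexa*, *Neu1*, *Lamp1*, *Lamp2*, *Atp6v0b*, *Atp6v0c*, *Atp6v0d1*, *Atp6v1e1* and *Atp6v1h*. Of these 11, 5 were pump genes. How many of all genes were never called was not counted, so these numbers are not shown to be particular to the set. The time points follow each other in a course and are not independent, so a difference present before OHT can be counted again at each.

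**Figure D4:**
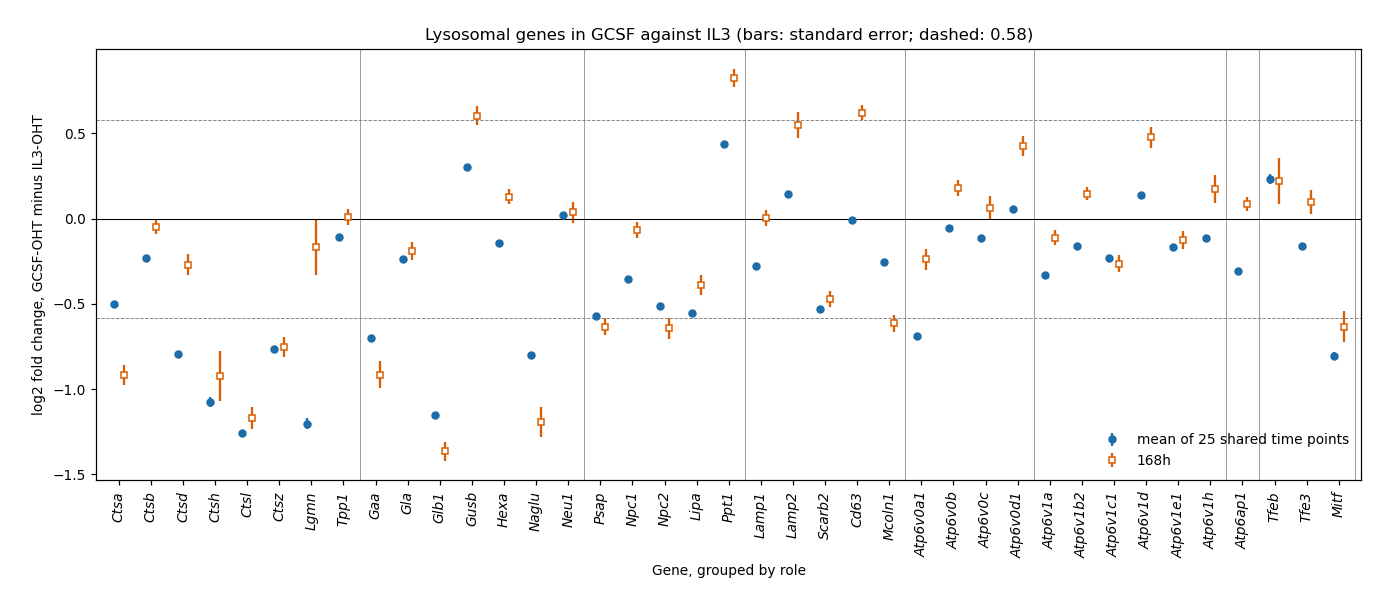
Log2 difference between GCSF-OHT and IL3-OHT cells (y axis) for each of 39 genes by role (x axis), as the mean over 25 shared time points in blue and at 168h in orange, with bars of SE and dashed lines at the fold threshold. Ctsl, Lgmn, Glb1 and Ctsh have the lowest means, Lgmn at 168h lies near 0, and the pump genes lie between the dashed lines except the mean of Atp6v0a1.

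At 168h itself, 11 of the 39 genes were lower and 3 higher in GCSF than in IL3 conditions, beside 16.0% and 12.0% of all genes, with a median of -0.11 and -0.02 over all genes. *Glb1* had 2081, 2094 and 2108 normalized counts in IL3 and 799, 806 and 835 in GCSF conditions, a log2 difference of -1.36 ± 0.06 (SE, limma adjusted p = 3.46e-44). *Ctsl* had 3480, 3661 and 3806 and 1558, 1636 and 1676, with -1.17 ± 0.06 (SE, limma adjusted p = 2.59e-34). *Ppt1* was the gene furthest in the other direction, with 1992, 2191 and 2227 in IL3 and 3654, 3745 and 3944 in GCSF conditions, a log2 difference of 0.82 ± 0.05 (SE, limma adjusted p = 9.31e-28). In all 3 genes the conditions did not overlap. Others lower in GCSF conditions were *Naglu* (-1.19), *Ctsh* (-0.92), *Gaa* (-0.92), *Ctsa* (-0.91), *Ctsz* (-0.75), the cholesterol carrier *Npc2* (-0.64), *Psap* (-0.63), *Mitf* (-0.63) and *Mcoln1* (-0.61), and *Cd63* (0.62) and *Gusb* (0.60) were higher. *Gusb* was not called without replicate 2 (0.577) or 3 (0.56), *Cd63* without replicate 3 (0.578), and *Mitf* without replicate 1 (-0.57). Of the 11 pump genes limma, edgeR and DESeq2 called 0, with differences from -0.26 to 0.48 and 10 at an unadjusted p under 0.05. The 95% interval of the difference was -0.20 to -0.03 for *Atp6v1a* and -0.36 to -0.12 for *Atp6v0a1*. That of *Lgmn*, which was lower in GCSF conditions over the course as a whole, was -0.49 to 0.16 at 168h.

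The change from the start to 168h was compared between the conditions by an interaction term. It was larger (more positive) in GCSF conditions for 7 of the 39 genes and smaller for 1, beside 14.5% and 11.3% of all genes, with a median of 0.30 and 0.03 over all genes. The differences between the log2 changes were 1.18 ± 0.09 for *Ctsl*, 1.00 ± 0.23 for *Lgmn*, 0.90 ± 0.11 for *Lamp2*, 0.83 ± 0.09 for *Ctsd*, 0.79 ± 0.10 for *Tfe3*, 0.68 ± 0.21 for *Ctsh* and 0.66 ± 0.06 for *Cd63* (± SE) and -0.60 ± 0.07 for *Mcoln1*. *Ctsl* changed by -0.82 in IL3 and 0.36 in GCSF conditions, the latter below the fold threshold, and *Ctsd* by -0.05 and 0.78. Both starts enter this term, and the GCSF 0h libraries lay below the undifferentiated ones in *Ctsl*, *Ctsd*, *Ctsh* and *Lgmn*. *Ctsh* did not pass the test without replicate 1 (0.63, limma adjusted p = 0.058) or without replicate 2 (0.56, adjusted p = 0.0565). Of the 11 pump genes limma, edgeR and DESeq2 called 0, with differences from -0.22 to 0.58 and 9 at an unadjusted p under 0.05.

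The 3 transcription factors followed different courses. *Tfeb* had 687, 728 and 779 normalized counts in undifferentiated cells and 1171, 1183 and 1212 at GCSF 0h, a log2 fold change of 0.70 ± 0.13 (SE, limma adjusted p = 2.78e-06), while most hydrolases called in that comparison fell. It had 1506, 1522 and 1589 at IL3-OHT 8h, with 1.07 ± 0.13 (SE, limma adjusted p = 8.25e-12) from undifferentiated cells, and 1069, 1309 and 1356 at 168h, with 0.76 ± 0.13 (SE, limma adjusted p = 5.60e-07). All libraries of these groups lay above the undifferentiated ones. In GCSF conditions *Tfeb* did not pass the test at 8h (0.31, adjusted p = 0.0636, 95% interval 0.05 to 0.58) or at 168h (0.28, adjusted p = 0.0757, 95% interval 0.01 to 0.55). *Mitf* had 317, 344 and 357 in undifferentiated cells and 180.8, 193.9 and 217.2 at GCSF 0h, a log2 fold change of -0.78 ± 0.09 (SE, limma adjusted p = 6.31e-13). It rose at 8h in IL3 (0.73 ± 0.09 (SE, limma adjusted p = 1.17e-11)) and in GCSF conditions (0.85 ± 0.09 (SE, limma adjusted p = 5.66e-14)), to 543, 549 and 595 and 346, 355 and 365. At 168h it was above the start in both courses (0.62 and 0.77), but in IL3 conditions it missed the fold threshold without replicate 1 (0.56). *Mitf* was lower in GCSF than in IL3 conditions at 24 of 25 shared time points. *Tfe3* had 1004, 1028 and 1067 and 613, 616 and 682, a log2 fold change of -0.70 ± 0.07 (SE, limma adjusted p = 1.03e-15). From there it rose to 928, 970 and 1031 at GCSF-OHT 168h (0.62 ± 0.07 (SE, limma adjusted p = 4.94e-13)). In IL3 conditions it did not pass the fold threshold at 8h (0.09) or 168h (-0.18). At 168h the 95% interval of the difference between GCSF and IL3 conditions was -0.05 to 0.49 for *Tfeb* and -0.05 to 0.24 for *Tfe3*. mRNA levels do not show where the proteins are in the cell. Of the 13 genes whose promoter window holds CACGTG, 6 were lower in GCSF conditions over the shared time points (*Ctsd*, *Ctsl*, *Lgmn*, *Gaa*, *Glb1* and *Naglu*), and of the 20 other tested genes with a window 3 were. Of the 6 whose window holds TCACGTGA 1 was called lower, *Ctsd*, and of the 27 others 8 were. Of the 2 tested genes whose window holds GAGGAAGT 0 were called lower, and of the 31 others 9 were. Among all genes, 15.1% were called lower in this comparison.

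**Figure D5:**
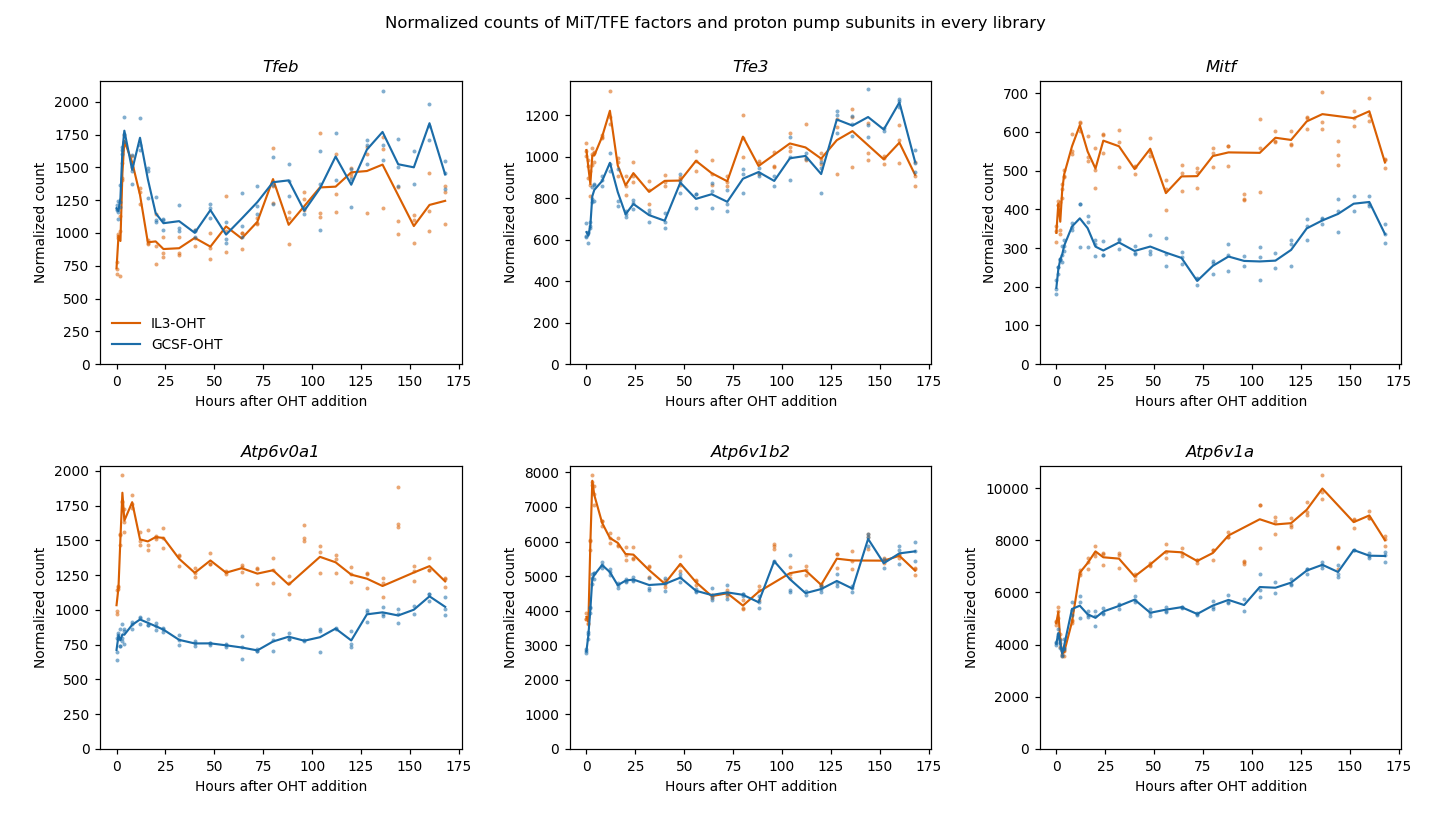
Normalized counts (y axis, linear from 0) of Tfeb, Tfe3, Mitf, Atp6v0a1, Atp6v1b2 and Atp6v1a against hours after OHT (x axis), in IL3 conditions in orange and GCSF conditions in blue, with a point for each library and lines through group means that pass over IL3-OHT 96h and 144h. Atp6v1b2 and Atp6v0a1 have their highest means at 3h in IL3 conditions, Mitf lies lower in GCSF conditions throughout, and Atp6v1a has its highest mean at 136h in IL3 and 152h in GCSF conditions.

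Other genes of the lysosome and its control were taken from lists that were chosen with earlier results of these data known. The counts stand beside 13.0% of all genes higher and 20.7% lower for the pre-treatment, 11.8% and 17.9% at IL3-OHT 8h, 5.39% and 4.01% at GCSF-OHT 8h, 10.2% and 15.2% at IL3-OHT 168h, 12.1% and 12.6% at GCSF-OHT 168h, and 9.34% and 15.1% in GCSF against IL3 conditions over the shared time points. Of 36 other hydrolases, 5 higher and 7 lower were called at GCSF 0h against undifferentiated cells, 4 higher and 6 lower at IL3-OHT 8h, 5 higher and 0 lower at GCSF-OHT 8h, 6 higher and 2 lower at IL3-OHT 168h and 10 higher and 1 lower at GCSF-OHT 168h, each against the start of its course. Over the shared time points, 3 higher and 4 lower were called in GCSF against IL3 conditions. Their medians were -0.09, -0.30, 0.14, 0.11, 0.16 and -0.13. *Ctsc*, cathepsin C, which activates granule serine proteases, had log2 fold changes of 4.79 ± 0.16 at IL3-OHT 8h, 3.47 ± 0.16 at GCSF-OHT 8h, 3.36 ± 0.16 at IL3-OHT 168h and 2.66 ± 0.16 at GCSF-OHT 168h (± SE). *Gm2a*, the activator protein of ganglioside breakdown, fell in the GCSF pre-treatment (-1.89) and rose to IL3-OHT 168h (1.36). Of 18 other membrane and transport proteins, 0 higher and 4 lower were called at GCSF 0h, 5 higher and 1 lower at IL3-OHT 168h and 7 higher and 0 lower at GCSF-OHT 168h. They include *Slc11a1*, a metal transporter of phagosomes (2.84 at IL3-OHT 8h and 2.76 at GCSF-OHT 168h), and *Cd68*, a macrophage glycoprotein (-1.72 at GCSF 0h). Of 9 other pump subunits tested, 2 higher and 0 lower were called at GCSF 0h, 1 higher and 1 lower at IL3-OHT 8h, 1 higher and 0 lower at GCSF-OHT 8h, and 1 higher and 0 lower and 1 higher and 0 lower at 168h in IL3 and GCSF conditions. *Atp6v0d2*, a d subunit found in macrophages and osteoclasts, rose by 1.30 at IL3-OHT 8h and 2.32 at IL3-OHT 168h on the log2 scale, and had -0.17 at GCSF-OHT 168h, where it was not called. GCSF-OHT cells were lower at 168h (-2.56). Of 12 sorting receptors and protease inhibitors, 3 higher and 1 lower were called at IL3-OHT 168h and 4 higher and 1 lower at GCSF-OHT 168h, among them the cathepsin inhibitors *Cst3* (1.62 and 1.27) and *Cst7* (-1.17 and -1.74). Reads of the stefin copies *Stfa1*, *Stfa2* and *Stfa3* may be split between near-identical genes and are uncertain. Of 17 genes of nutrient sensing, 3 higher and 1 lower were called at IL3-OHT 8h and 3 higher and 0 lower at GCSF-OHT 8h, with *Tfec*, a relative of *Tfeb*, higher in both (1.52 and 0.98). Of 10 autophagy genes, 0 higher and 4 lower were called at IL3-OHT 8h and 1 higher and 0 lower at GCSF-OHT 168h. Not every comparison is given for every list, and those of the autophagy genes at GCSF 0h and IL3-OHT 168h are left out.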

How the data were processed

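RNA-Seq was measured in 165 libraries of PUER cells in 56 groups, 53 of 3 wells and 3 of 2 (GCSF-OHT 96h, 112h and 152h). Groups were taken from the titles and descriptions in the labels. The titles of the GCSF 0h libraries name OHT, while their descriptions and the study's methods place them before OHT, and they were used as such. The authors quantified reads with Salmon against GRCm38 and deposited counts divided by DESeq2 size factors (a signal of normalized counts for 36255 genes). How transcripts were summed to genes, and the versions of Salmon and DESeq2, are not given in the sources used here. The scaling assumes that most genes do not change, and estimated reads of near-identical genes can be split between copies. The deposited values were whole reads divided by 1 factor per library in 100% of values (tolerance 1e-06), although this could not be tested by low values in 7 libraries. Total reads ranged from 14600246 to 33147945. No column was left without a sample.

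As the values are not counts, limma 3.58.1 in R 4.3.3 (lmFit, eBayes with a trend, prior degrees of freedom 8.12) was fitted to log2(normalized count + 1) of 17414 genes with a value of at least 5 in at least 1 library, in 1 fit of 159 libraries. The pseudocount of 1 understates changes of low genes. As in the study, the libraries at IL3-OHT 96h and 144h did not enter it. A gene was called at a Benjamini-Hochberg adjusted p below 0.05 over all genes and an absolute log2 fold change over 0.58. Every adjusted p in the text is limma's unless another tool is named, and two-sided. All 40 genes were accounted for in each comparison, with full values for up to 8 called genes of largest change and for *Tfeb*, *Tfe3* and *Mitf*, and values per library for the largest change in each role. The members and lists were chosen with earlier results of these data known. Alternatives were pseudocounts of 0.5 and 5, no filter or a mean of at least 10, upper-quartile scaling, leaving out each replicate, a replicate block, IL3-OHT 96h and 144h in the fit, leaving out the 120h libraries, a fit of only the groups compared, and edgeR 4.0.16 (quasi-likelihood, TMM) and DESeq2 1.42.0 (Wald) on the recovered reads. The procedure was also run on simulated data with known changes, but the setting and outcome are not given here and add no support to the calls. Promoter windows were read with Python 3.11.15, and figures drawn with matplotlib 3.10.9.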

Additional observations from a re-analysis of the deposited data

Results flagged for a closer look

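For 8 of the 39 genes tested, beside 14.5% of all genes with a larger and 11.3% with a smaller change in GCSF conditions, the change from the start of the course to 168h of OHT differed between GCSF and IL3 conditions by the interaction term of the limma fit, the start being GCSF 0h in one and undifferentiated cells in the other. The largest difference was that of *Ctsl*, at 1.18 on the log2 scale (adjusted p = 6.72e-23), with changes of -0.82 in IL3 and 0.36 in GCSF conditions. *Lgmn* differed by 1.00 (0.64 and 1.64, adjusted p = 1.77e-04), *Lamp2* by 0.90 (0.08 and 0.98, adjusted p = 6.70e-12), *Ctsd* by 0.83 (-0.05 and 0.78, adjusted p = 5.20e-15) and *Tfe3* by 0.79 (-0.18 and 0.62, adjusted p = 3.75e-11). *Ctsh* differed by 0.68 (0.70 and 1.38, adjusted p = 0.00366), and *Cd63* by 0.66 (-0.03 and 0.62, adjusted p = 5.89e-17). *Mcoln1* was the only gene of the 39 tested with a called difference in the other direction, at -0.60 (0.71 and 0.11, adjusted p = 3.48e-12). The estimated changes had opposite signs in IL3 and GCSF conditions for *Ctsl*, *Ctsd*, *Tfe3* and *Cd63*, but in no case were both called. The IL3 changes of *Ctsd* (limma adjusted p = 0.504) and *Cd63* (limma adjusted p = 0.572) were not told from 0. The IL3 change of *Tfe3* and the GCSF change of *Ctsl* did not pass the fold threshold.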

How the results depend on the processing

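The numbers of genes of the set called in the 12 comparisons, 15 at GCSF 0h, 16 at IL3-OHT 8h, 6 at GCSF-OHT 8h, 10 and 14 at 168h in IL3 and GCSF conditions, 5 and 3 for late against early times, 10 over the shared times, 14 between conditions at 168h, 8 for the interaction, and 27 and 24 for any change, stayed within 1.5 times under every alternative that gave a value. Leaving out 1 replicate gave 15 to 16, 15 to 17, 6 to 7, 9 to 10, 12 to 14, 4 to 5, 2 to 3, 10 to 11, 12 to 14, 7 to 8, 26 to 28 and 23 to 25, in the same order. Upper-quartile scaling gave 19 at GCSF 0h, adding *Gla*, *Npc2*, *Atp6v0a1* and *Atp6v1e1*, and moved the median of all genes there from -0.09 to -0.15. Same-numbered libraries of the 2 conditions did not deviate together (median correlation -0.03, 19 of 69 pairs over 0.1), and the fit with a replicate block gave the same number of called genes in all 12 comparisons. Among the called genes of each comparison and the 3 transcription factors, 1488 values under alternatives kept their direction and side of the threshold, 19 lost the call and 1 reversed: *Mitf* in the interaction, 0.15 and not called, was -0.024 without replicate 3 (adjusted p = 0.934) and ranged up to 0.33 with 1 replicate left out. The lost calls, all but those of *Ctsh* by the fold threshold, were *Lipa* at IL3-OHT 8h (0.55 with upper-quartile scaling, 0.54 without replicate 1), *Glb1* (-0.57) and *Gusb* (-0.55) without replicate 1 and *Ctsb* (0.55) without replicate 3 at GCSF-OHT 168h, *Gusb* (0.55, 0.577 and 0.56 with upper-quartile scaling and without replicates 2 and 3) and *Cd63* (0.56 and 0.578 with upper-quartile scaling and without replicate 3) between conditions at 168h, *Gusb* late in GCSF conditions (-0.57 with upper-quartile scaling, -0.57 without replicate 3), *Mitf* without replicate 1 at IL3-OHT 168h (0.56) and between conditions at 168h (-0.57), *Mcoln1* late in IL3 conditions (0.58 without replicate 1 and with edgeR, 0.47 with 96h and 144h in the fit) and *Ctsh* in the interaction (0.63 and 0.56 without replicates 1 and 2). Over all genes, late against early times in GCSF conditions gave 12.0% called, but 6.86% with a pseudocount of 5, and 10.4% of 12298 genes with the mean filter. DESeq2 was not run on the comparisons of means over times or the tests of any change. The depth limits *Ctss* (at most 6 reads), and with 3 wells of 1 line per group the p-values do not cover variation between lines or experiments.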

Other observations

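Autophagy delivers cytoplasm to the lysosome, and 4 of its genes are given here, chosen after their values were seen. *Sqstm1*, a receptor for ubiquitinated cargo, fell in the GCSF pre-treatment (log2 fold change -2.03) and in the IL3 course to 168h (-1.26), and rose in the GCSF course to 168h (0.64), with a difference of 1.90 between the changes by the limma interaction term. *Map1lc3a*, which encodes a protein of the autophagosome membrane, fell in the pre-treatment (-1.09) and by 8h of OHT in IL3 conditions (-1.48). *Wipi1*, a phosphoinositide-binding protein of autophagosome formation, fell by 8h in IL3 conditions (-1.41) and was above undifferentiated cells at IL3-OHT 168h (0.70). *Gabarapl1* was lower in GCSF than in IL3 conditions over the shared time points (-0.62) and at 168h (-0.94).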
